A study of Homo sapiens with 36 samples.

Results

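DNAJ proteins, also called HSP40 or J-domain proteins, are co-chaperones. Each carries a J domain that stimulates the ATPase of an HSP70 chaperone, and many also deliver the client protein to it. Class A members keep the J domain, a glycine-rich stretch and a zinc-binding region, class B members lack the zinc-binding region, and class C members share little beyond the J domain and are spread over many compartments. In cells under proteotoxic stress, heat shock factors raise the transcription of several cytosolic members together with HSP70 genes, whereas members of the endoplasmic reticulum (ER) belong to the unfolded protein response.

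The genes described here are the protein-coding genes whose symbol begins with DNAJA, DNAJB or DNAJC followed by a number. There were 45 of them among 61587 gene rows, comprising 4 of class A, 12 of class B and 29 of class C. Of these, 43 had enough counts to be tested (4, 11 and 28 by class). DNAJB8 had 8 counts over all libraries and DNAJC5B had 39, and neither passed the filter of 10 counts summed over the 3 untreated vector libraries. One member of class C, DNAJC25-GNG10, is a readthrough gene that shares exons with DNAJC25 and GNG10, so reads of the 3 genes could be split among them.

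RNA was sequenced from HEK293T cells, a line derived from human embryonic kidney, that all lacked TXNL1 (genotype TXNL1 KO), a thioredoxin-like protein that binds the proteasome. The methods state that knockout cells were grown from single sorted cells but not how many such clones entered this experiment. Into these cells lentivirus with a CMV promoter had brought an empty vector, WT TXNL1, D162R R234D TXNL1 (DR-RD in the labels, a mutant deficient in proteasome binding) or SxxS TXNL1 (a mutant of the thioredoxin active site). Each of these 4 lines was untreated (labelled DMSO) or given arsenite (100 µM) or hydrogen peroxide (600 µM) for 6 h, both agents that cause oxidative stress, with doses and time taken from the methods because the labels give none. The 12 groups of 3 replicates made 36 libraries, and the replicates are described as triplicate treatments in plates, so p-values cover the spread between these samples, which may be partly technical.

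Libraries held 42072410 to 174119002 counts (median 66016833). TXNL1 RNA averaged 30.6 CPM (counts scaled to a common library size with TMM factors) ± 1.77 (SD, n = 3) in untreated vector cells against 53.4 to 62.9 in the complemented lines, so transcripts of the targeted gene were still counted in the knockout. VIM, a gene HEK293T cells express strongly, stood at 466 CPM in untreated vector cells and KRT18 at 46.5 CPM. The blood marker CD3E was at 0 counts in all 3 of these libraries, while PTPRC, PECAM1 and ALB were each at or below 0.0367 CPM there, and COL1A1, listed as a fibroblast marker, was at 14.4 CPM. With arsenite averaged over lines, 3 of 6 HEK293T markers were higher (KRT8, KRT18 and PAX2), NEFL was lower and COL1A1 did not pass (log2 fold change -0.14), and the part of these shifts in the results was not tested. Of the 36 libraries, 2 stood apart from their groups. WT arsenite replicate 1 and WT hydrogen peroxide replicate 2 scattered around their group medians with an SD of 0.535 and 0.612 on the log2 CPM scale, against 0.0666 to 0.175 for the others. The main counts of called members are therefore also given without both. These are bulk samples, in which fewer cells and less RNA per cell cannot be told apart.

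In untreated cells the family was dominated by a few genes. Per kilobase of the length given beside the counts, DNAJA1 had the highest median level over 12 untreated libraries (242 CPM per kb), followed by DNAJC8 (122), DNAJB1 (40.0), DNAJC9 (33.7) and DNAJA2 (31.4). The value of DNAJB1 is low for its counts because its listed length, 8188 bases, takes in all annotated exons of the gene. The median member stood at 26.4 CPM per kb in class A, at 3.71 in class B and at 5.57 in class C. At the low end were DNAJA4 (median 1.15 CPM), DNAJB7 (0.686 CPM), DNAJB13 (0.217 CPM), DNAJC15 (0.132 CPM) and DNAJC5G (0.103 CPM).

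Arsenite changed most of the family, in both directions. Averaged over the 4 lines, 35 of 43 tested members passed the threshold (adjusted p under 0.05, quasi-likelihood test of edgeR, adjusted over 22486 genes by Benjamini-Hochberg), 19 higher and 16 lower. The background was large, since 68.8% of all genes tested passed it, 37.4% higher and 31.5% lower. The median log2 fold change was 0.10 over the family and 0.06 over all genes. By class, 2 rose and 1 fell of 4 in class A (median 0.16), 5 rose and 3 fell of 11 in class B (median 0.13), and 12 rose and 12 fell of 28 in class C (median 0.06). Without both outlying WT libraries, 37 members passed, 20 higher and 17 lower, when 73.7% of all genes did, and DNAJC6 (0.15) and DNAJB14 (-0.12) were the additions. Among the 19 tested members whose exons overlap no other gene, 8 were higher and 8 lower.

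**Figure D1:**
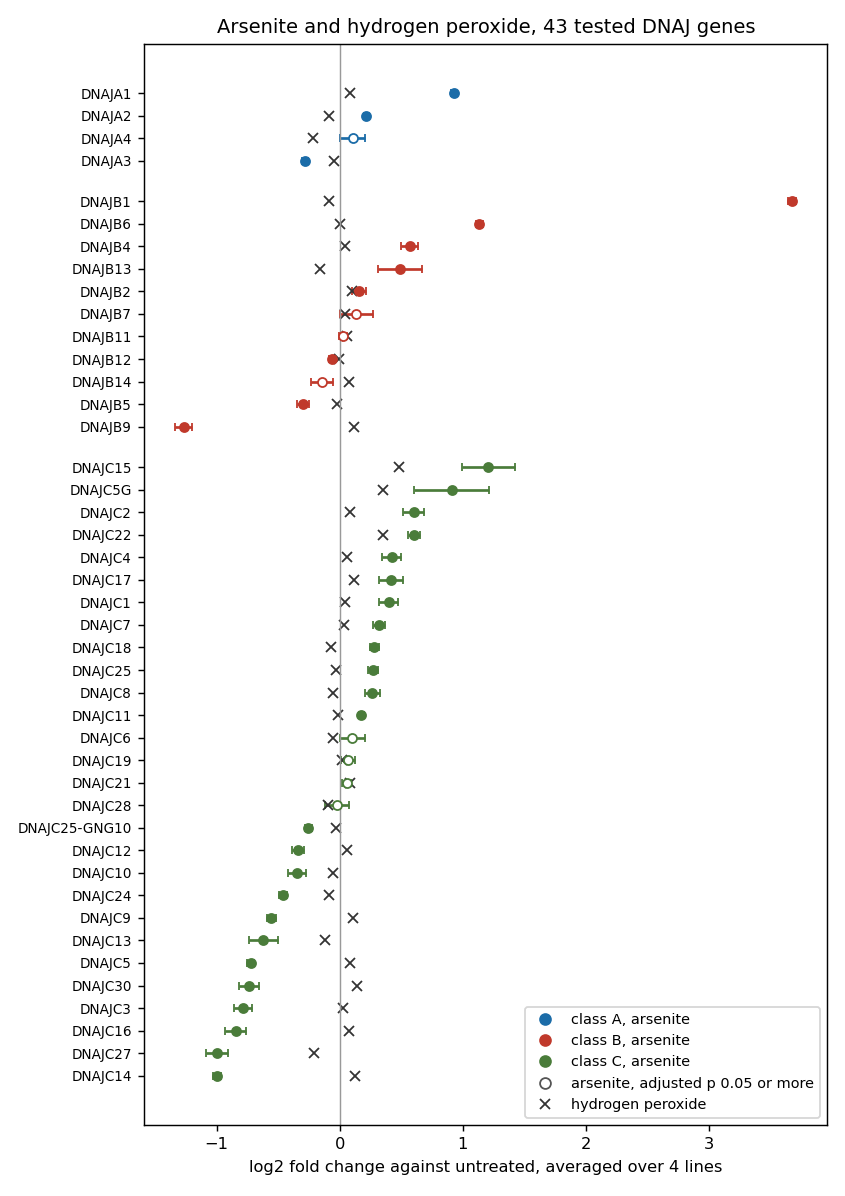
Log2 fold change against untreated cells (x axis) of each tested DNAJ gene (rows, ordered within classes A, B and C), averaged over 4 lines. Circles with SE bars are arsenite (open where adjusted p was 0.05 or more) and crosses are hydrogen peroxide. DNAJB1 stands alone at 3.68, while crosses lie between -0.22 and 0.48.

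Among members with a mean of at least 1 CPM, the 3 largest rises were those of cytosolic partners of HSP70 in classes A and B. Of 8 such partners 6 rose, DNAJB5 fell and DNAJA4 did not pass, with a median log2 fold change of 0.39. Of all genes 37.4% were called higher and 31.5% lower. DNAJB1, the classical HSP40 that helps HSP70 refold and disaggregate proteins, had the largest change of the family. In untreated vector cells its 3 libraries were at 333, 319 and 350 CPM, and with arsenite they were at 4453, 4210 and 4283 CPM. Over all lines it ran from 292 to 372 CPM (median 327) in untreated libraries and from 3683 to 4765 CPM (median 4248) with arsenite. All arsenite libraries were thus about an order of magnitude above all untreated ones. The log2 fold change was 3.68 ± 0.03 (SE), a 12.8-fold rise, with an adjusted p of 4.67e-35 by edgeR's quasi-likelihood test.

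DNAJB6, which suppresses the aggregation of polyglutamine proteins, had the next largest rise among members of at least 1 CPM, since DNAJC15, described further on, was counted far below that level. It ran from 101 to 119 CPM (median 111) without treatment and from 198 to 265 CPM (median 248) with arsenite, and the lowest arsenite value was that of the outlying WT library. Its log2 fold change was 1.13 ± 0.03 (adjusted p = 2.21e-24, edgeR). DNAJA1, a farnesylated cytosolic co-chaperone, was already the most abundant member and rose from 613 to 677 CPM (median 646) to 1157 to 1280 CPM (median 1216). That is a log2 fold change of 0.93 ± 0.02 (adjusted p = 1.68e-25, edgeR), with no overlap between the 12 untreated and the 12 arsenite libraries.

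The remaining cytosolic members moved less. DNAJB4, a close relative of DNAJB1, ran from 21.8 to 24.7 CPM in untreated libraries and from 23.2 to 40.5 CPM with arsenite, where the low value was again the outlying WT library (32.1 to 40.5 CPM without it). Its log2 fold change was 0.57 ± 0.07. DNAJA2, another cytosolic class A co-chaperone, rose by 0.22 ± 0.02 on the log2 scale, from a median of 156 to 179 CPM. DNAJB2, known from neurons, rose by 0.16 ± 0.06, a call in which the WT libraries lead, since its log2 fold change was 0.41 in WT and 0.03 to 0.12 in the other lines, and it was 0.10 ± 0.04 over lines without the outlying libraries. DNAJB5 decreased by 0.30 ± 0.05 on the log2 scale. DNAJA4 was at 0.723 to 1.43 CPM untreated and 0.868 to 1.59 CPM with arsenite, and its log2 fold change of 0.10 ± 0.10 did not pass (adjusted p = 0.37, edgeR).

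**Figure D2:**
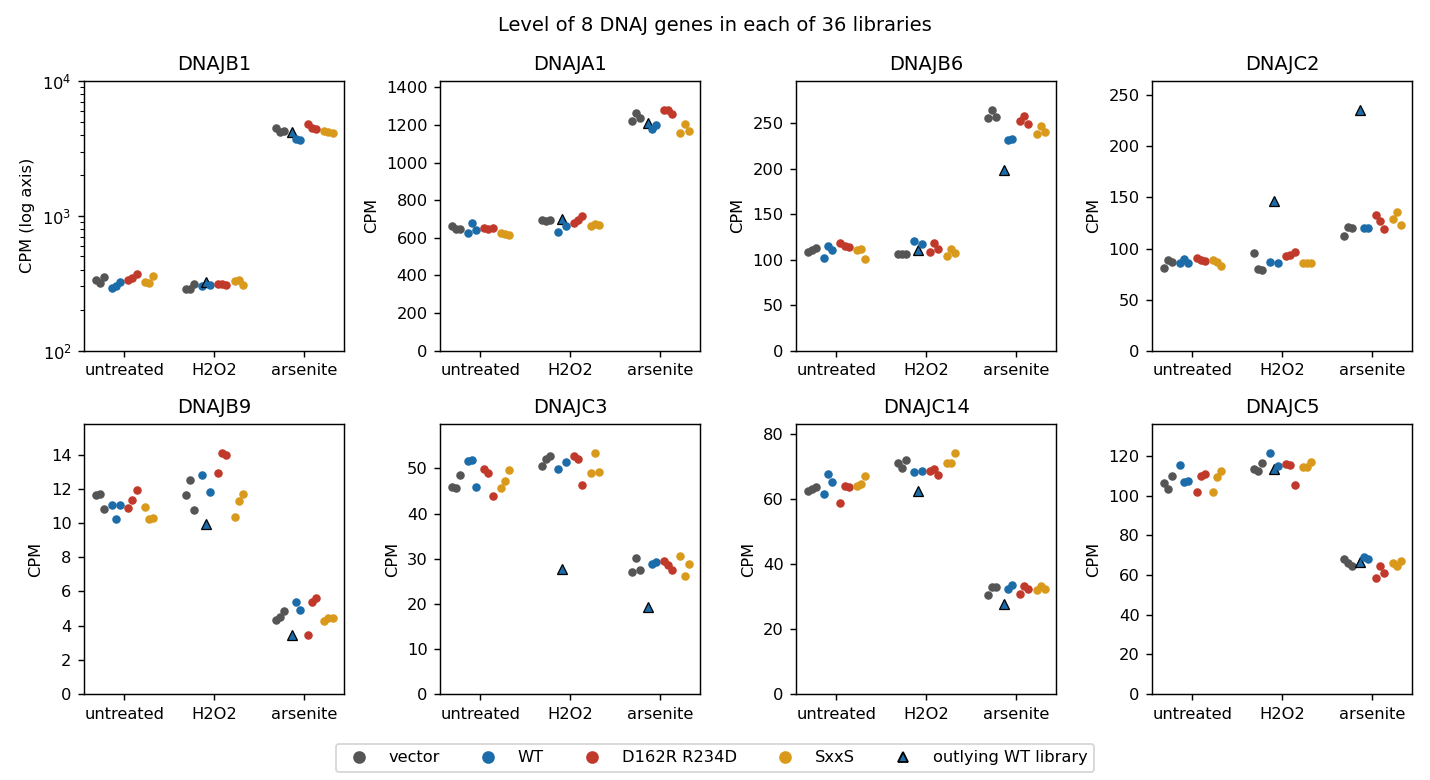
Level in CPM (y axis, logarithmic for DNAJB1 only) of 8 DNAJ genes in every library by treatment (x axis), coloured by line, with the outlying WT libraries as triangles. DNAJB1, DNAJA1, DNAJB6 and DNAJC2 sit higher in all 12 arsenite libraries than in any untreated one, and DNAJB9, DNAJC3, DNAJC14 and DNAJC5 lower.

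Because the rise of DNAJB1, DNAJB6 and DNAJA1 is the leading feature of the family, the DNA before their start sites was searched for the words of the heat shock element, in which the units GAA and TTC alternate. The 250 bases before the MANE Select transcript start (GENCODE 44, GRCh38) were read for 44 members, all but DNAJC25-GNG10. The paired word, GAANNTTC or TTCNNGAA (each reads as itself on the opposite strand), was in 7 of 44 windows (DNAJB1, DNAJB6, DNAJA1, DNAJB4, DNAJA4, DNAJC15 and DNAJB7) and in 9.35% of 19061 windows of all genes. The triple word, in which a further unit follows the pair after 2 more bases on either strand, was in 1 member window, that of DNAJB6, and in 0.315% of all windows. These windows end at the start. In RefSeq windows, which run on past the start, 2 of 41 members held the triple word, DNAJB6 and DNAJA1 (0.49% of 35116 windows). In DNAJA1 it began 3 bases after the start. The paired word was in 4 of these 41 RefSeq windows and in 13.5% of all RefSeq windows. Stretches outside annotated exons that hold the words are printed 5′ to 3′ on the gene's strand, with the words in capitals, for the strongly rising DNAJB1 and DNAJB6, for DNAJB4, and for DNAJA4, which did not pass the test.
DNAJB1 (chr19:14518408-14518647, minus strand): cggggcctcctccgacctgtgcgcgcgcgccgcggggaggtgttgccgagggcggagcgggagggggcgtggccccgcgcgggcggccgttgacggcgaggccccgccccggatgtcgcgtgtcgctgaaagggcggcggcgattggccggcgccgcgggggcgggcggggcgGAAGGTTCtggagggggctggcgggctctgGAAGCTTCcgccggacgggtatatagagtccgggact
DNAJB6 (chr7:157336774-157336965, plus strand): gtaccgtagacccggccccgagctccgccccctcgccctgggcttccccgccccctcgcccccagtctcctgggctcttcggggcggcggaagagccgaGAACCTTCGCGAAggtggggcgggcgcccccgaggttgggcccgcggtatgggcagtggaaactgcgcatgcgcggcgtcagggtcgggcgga
DNAJB4 (chr1:78004689-78004934, plus strand): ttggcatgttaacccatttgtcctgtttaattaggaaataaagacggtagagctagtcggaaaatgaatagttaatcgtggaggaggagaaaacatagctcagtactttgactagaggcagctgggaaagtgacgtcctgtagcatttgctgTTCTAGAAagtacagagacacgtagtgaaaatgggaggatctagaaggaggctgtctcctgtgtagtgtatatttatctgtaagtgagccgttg
DNAJA4 (chr15:78264394-78264543, plus strand): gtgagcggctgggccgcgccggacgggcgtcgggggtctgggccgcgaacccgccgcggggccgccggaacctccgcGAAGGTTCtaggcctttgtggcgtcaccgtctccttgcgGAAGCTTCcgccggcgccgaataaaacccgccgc

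In DNAJB1 the words lay 77 to 70 and 47 to 40 bases before the start, in DNAJB6 131 to 124 and 126 to 119 (overlapping, which makes the triple word), and in DNAJB4 98 to 91. The DNAJA4 window carried the same pair of words as that of DNAJB1, GAAGGTTC and GAAGCTTC, at 91 to 84 and 52 to 45 bases. Averaged over lines, the level of DNAJA4 did not pass the test. That level is low (median 1.15 CPM untreated), and its log2 fold change ran from -0.20 to 0.43 in the 4 lines. Before the start of DNAJA1 its word lay at 198 to 191 bases, inside an annotated exon of the neighbouring gene APTX. Those of DNAJC15 and DNAJB7 also lay inside annotated exons, so none of these is printed. The ER stress element was in 0 of 44 windows (0.0997% of all), the ATF4 type word TGATGNAA in 1 (2.18% of all) and the antioxidant word TGACNNNGC in 4 (11.4% of all), each on either strand. A word is a description of these letters and does not show that a factor binds.

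**Figure D3:**
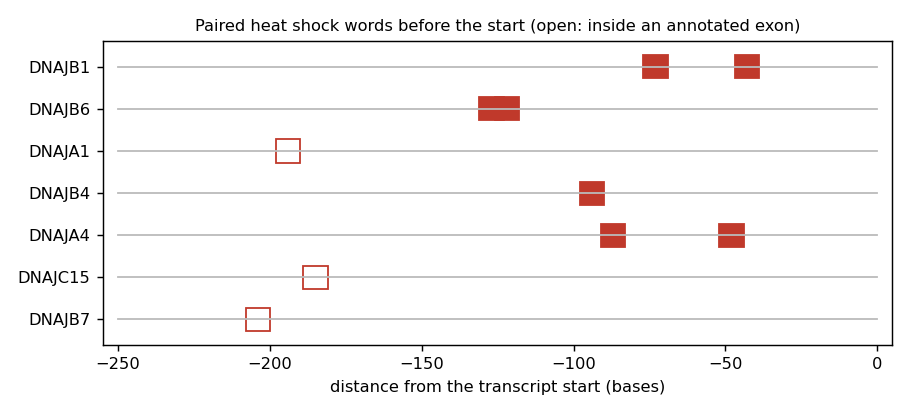
Position of the paired heat shock word in the 7 member windows that hold it (rows), as distance in bases from the MANE Select start (x axis, 250 bases in all). Filled bars lie outside annotated exons and open bars inside one. DNAJB1 and DNAJA4 each have 2 separate words at similar distances.

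Members of the ER lumen went in both directions, when 31.5% of all genes were called lower and 37.4% higher. Of 5, 3 fell, 1 rose and DNAJB11 did not pass (0.03 ± 0.04), with a median of -0.35. DNAJB9, an ER co-chaperone of BiP that restrains the stress sensor IRE1, had the largest fall of the family. Its untreated vector libraries were at 11.7, 11.7 and 10.8 CPM and its arsenite ones at 4.30, 4.51 and 4.83 CPM. Over 12 libraries each, it ran from 10.2 to 11.9 CPM untreated and from 3.43 to 5.60 CPM with arsenite, with no overlap. The log2 fold change was -1.27 ± 0.07 (adjusted p = 1.72e-16, edgeR). DNAJC3, a lumenal co-chaperone also described as an inhibitor of the kinases PKR and PERK, decreased by 0.79 ± 0.07 on the log2 scale, from 43.9 to 52.0 CPM down to 19.2 to 30.6 CPM. DNAJC10, a disulfide reductase with a J domain, decreased by 0.35 ± 0.07. DNAJC1, which sits in the ER membrane with its J domain in the lumen, rose by 0.40 ± 0.08, or 0.29 ± 0.03 without the outlying libraries. Of 2 members listed with a J domain facing the cytosol from the ER membrane, DNAJB12 decreased by 0.06 ± 0.02 on the log2 scale. DNAJB14 did not pass (-0.14 ± 0.09). This list does not hold every member of the ER membrane, and DNAJC14 is described further on.

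Other falls of class C were found on vesicles, in mitochondria and among members of mixed function. DNAJC14, a membrane protein of the ER that has been tied to receptor export, ran from 58.9 to 67.5 CPM untreated and from 27.6 to 33.4 CPM with arsenite, so that its level was about halved in every line (log2 fold change -0.999 ± 0.03, adjusted p = 1.72e-22, edgeR). DNAJC27, a RAB-like GTPase with a J domain, was at -0.997 ± 0.09, from 3.16 to 3.92 CPM down to 1.35 to 2.44 CPM. DNAJC5, the cysteine string protein of secretory vesicles, decreased by 0.72 ± 0.03 on the log2 scale, from 102 to 115 CPM down to 58.6 to 69.1 CPM. DNAJC13, an endosomal protein, decreased by 0.62 ± 0.12, while DNAJC6, the auxilin that uncoats clathrin vesicles, did not pass (0.10 ± 0.10). DNAJC16 was at -0.84 ± 0.09. For DNAJC16 and DNAJC13 the lowest arsenite values, 5.31 and 20.3 CPM, belonged to the outlying WT library. In the other 11 arsenite libraries they ran from 9.12 to 11.7 and from 42.9 to 53.1 CPM.

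Of 7 mitochondrial members, 3 rose and 2 fell (37.4% and 31.5% of all genes did). DNAJC30, a protein of the inner membrane, decreased by 0.74 ± 0.08 on the log2 scale, and DNAJA3, the mitochondrial member of class A, by 0.28 ± 0.02 (143 to 159 CPM down to 116 to 134 CPM, no overlap). DNAJC4 rose by 0.42 ± 0.08 and DNAJC11, of the complex that shapes the inner membrane folds, by 0.17 ± 0.02. DNAJC15 had a log2 fold change of 1.21 ± 0.21 at a level of only 0.0336 to 0.353 CPM untreated and 0.276 to 0.489 CPM with arsenite, and these ranges overlapped. DNAJC19, of the import motor, and DNAJC28 did not pass (0.06 ± 0.06 and -0.02 ± 0.10).

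Among 6 members that act on ribosomes, splicing, chromatin or translation factors, 3 rose and 2 fell (37.4% and 31.5% of all genes did). DNAJC2, a ribosome-bound co-chaperone, rose by 0.60 ± 0.09 on the log2 scale, or 0.48 ± 0.03 without the outlying libraries. WT arsenite replicate 1 stood at 236 CPM against 113 to 136 CPM in the other 11 arsenite libraries and 81.4 to 90.4 CPM untreated, so the groups did not overlap with or without it. DNAJC8, of the spliceosome, rose by 0.26 ± 0.06 (0.19 ± 0.02 without the outlying libraries), and DNAJC17, also of splicing, by 0.41 ± 0.10 (0.29 ± 0.03 without them). DNAJC9, a histone chaperone of dividing cells, decreased by 0.56 ± 0.03, and DNAJC24, an enzyme cofactor of diphthamide synthesis on elongation factor 2, by 0.46 ± 0.03. DNAJC21, of ribosome assembly, did not pass (0.06 ± 0.04).

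Further rises in class C were those of DNAJC22 (0.60 ± 0.05), DNAJC7 (0.32 ± 0.05), which binds HSP70 and HSP90 through its TPR repeats, DNAJC18 (0.28 ± 0.04) and DNAJC25 (0.27 ± 0.04). For DNAJC7 the outlying WT arsenite library stood at 315 CPM, against 221 to 248 CPM in the other 11 arsenite libraries. The readthrough DNAJC25-GNG10, named after its values were seen, went the other way from DNAJC25, at -0.26 ± 0.03. DNAJB13 (0.49 ± 0.18) and DNAJC5G (0.91 ± 0.31), also named after their values were seen, passed at medians of 0.361 and 0.206 CPM with arsenite, and their untreated and arsenite ranges overlapped.

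The summed level of each class showed where the RNA of the family went. Class B was the smallest in untreated libraries, at 77.6 to 88.2 CPM per kb (median 83.3), and reached 502 to 635 (median 572) with arsenite. Class A went from 281 to 307 CPM per kb (median 296) to 487 to 534 (median 509). Within it, the median of DNAJA1 went from 242 to 456 CPM per kb. DNAJA2 went from 31.4 to 36.1, DNAJA3 from 21.3 to 17.4 and DNAJA4 from 0.174 to 0.185. Class C was at 332 to 357 CPM per kb (median 343) untreated and 326 to 471 (median 336) with arsenite, where the top value was WT arsenite replicate 1 (326 to 350 without it). In CPM, class B supplied a median of 20.5% of the family untreated and 60.1% with arsenite, and DNAJB1 alone supplied 10.2% and 54.0%. In CPM per kb, the median share of class B was 11.6% untreated and 40.1% with arsenite. In class C, rises and falls thus left the sum of the class within a similar range, apart from that one library.

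**Figure D4:**
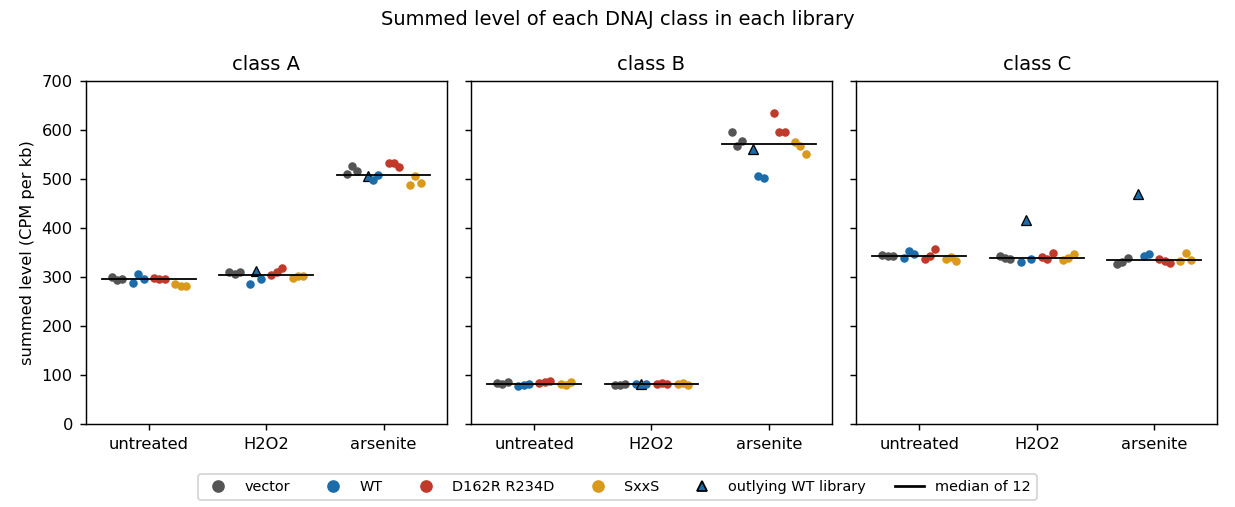
Summed level of the members of class A, B and C (panels) in each library, in CPM per kb (y axis), by treatment (x axis), coloured by line, with lines at the median of 12 libraries. Classes A and B are higher with arsenite in every library, to medians of 509 and 572, while class C stays near its untreated median of 343 except in the outlying WT libraries.

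The arsenite pattern was present in each line. The called members numbered 24 of 43 in vector cells (12 higher, 12 lower), where 43.4% of all genes passed (22.1% higher, 21.4% lower). In WT it was 30 (16 higher, 14 lower, against 53.6%, 28.7% and 24.9% of all genes). For D162R R234D there were 27 (13 higher, 14 lower, against 44%, 22.5% and 21.5%). SxxS cells had 25 (11 higher, 14 lower, against 43.6%, 22.1% and 21.5%). When only untreated and arsenite WT libraries were fitted, 15 members and 28.5% of all genes passed in WT. Without both outlying libraries the counts were 33 in vector cells (17 higher, 56.4% of all genes called), 31 in WT (16 higher, 52.9%), 35 for D162R R234D (19 higher, 56.9%) and 31 for SxxS (16 higher, 57%). In all 4 lines 8 members were called higher (14.9% of all genes were), namely DNAJA1, DNAJA2, DNAJB1, DNAJB6, DNAJC2, DNAJC7, DNAJC22 and DNAJC25. In all 4 lines 11 were called lower (16.1% of all genes), namely DNAJA3, DNAJB9, DNAJC3, DNAJC5, DNAJC9, DNAJC14, DNAJC16, DNAJC24, DNAJC25-GNG10, DNAJC27 and DNAJC30. Without both outlying libraries, 14 were called higher in all 4 lines (19.7% of all genes), with DNAJC25 no longer among them, and 14 lower (21.8%). Over 12 libraries against 12, 10 members lay wholly above their untreated values (13.4% of all genes) and 10 wholly below (16.6%), and with the outlying arsenite library left out these numbers were 12 (17.3%) and 13 (18.4%).

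The log2 fold change of DNAJB1 with arsenite was 3.66 to 3.70 in the 4 lines and that of DNAJA1 0.88 to 0.97. DNAJB9 was at -1.32 to -1.23 and DNAJC14 at -1.06 to -0.95. No member passed a test of the difference in the arsenite effect between lines (edgeR's quasi-likelihood interaction test, smallest adjusted p = 0.707 for DNAJB13, with 3 of 43 at an unadjusted p under 0.05). By the same test 0% of all genes passed (1432 had an unadjusted p under 0.05), and DESeq2 called 0 members, with 4 at an unadjusted p under 0.05. For DNAJB13 the log2 fold change was 1.496 in D162R R234D and -0.28 in WT, at under 0.6 CPM in each library.

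**Figure D5:**
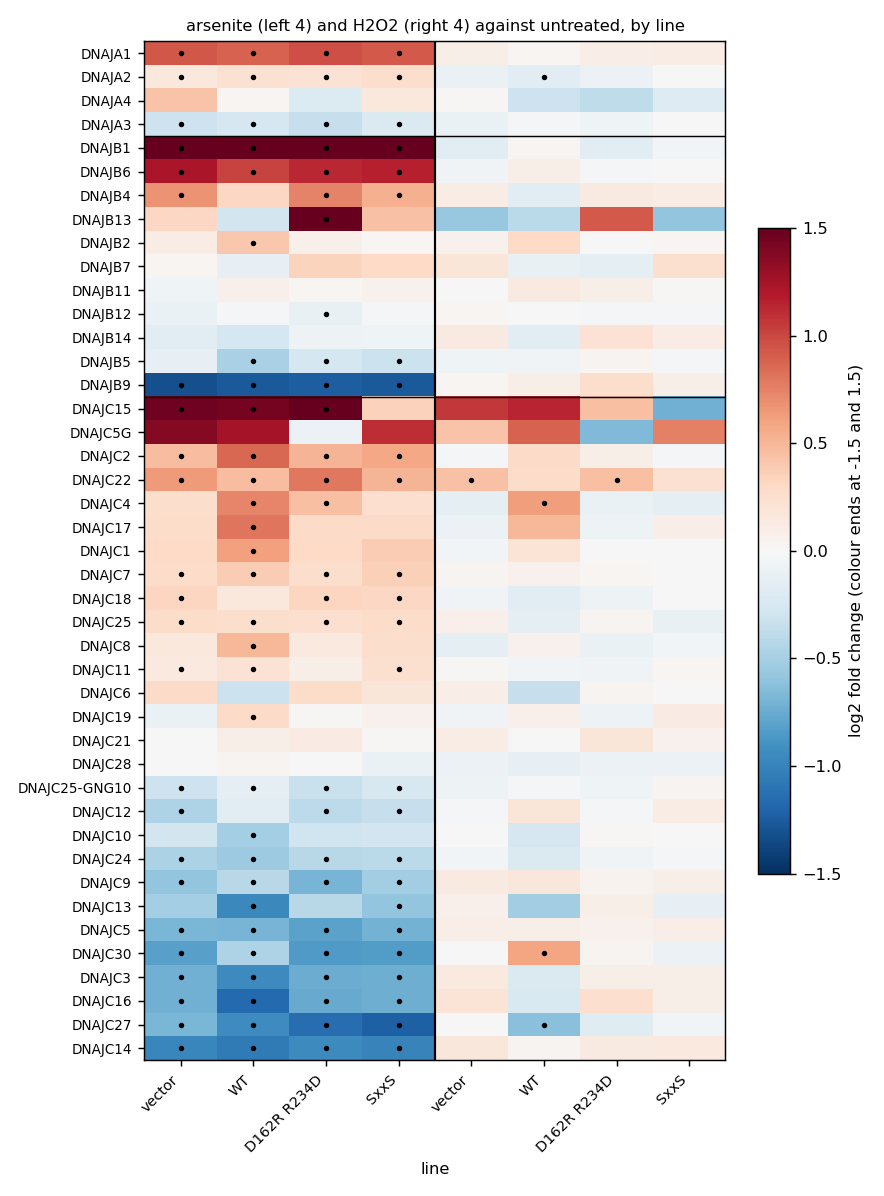
Log2 fold change against untreated cells of the same line (colour) for each tested DNAJ gene (rows, classes A, B and C separated by lines), with arsenite in the left 4 columns and hydrogen peroxide in the right 4. Dots mark adjusted p under 0.05 (edgeR). With arsenite, 24 to 30 members carry a dot per line, and with hydrogen peroxide 0 to 4.

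Hydrogen peroxide at this dose and time moved the family little. Averaged over lines, 7 of 43 members passed (12.1% of all genes did), 5 higher and 2 lower (6.78% and 5.3% of all genes). DNAJC22 rose by 0.35 ± 0.05 on the log2 scale (adjusted p = 5.11e-06, edgeR), from 4.36 to 6.88 CPM (median 5.51) to 6.28 to 7.94 CPM (median 7.13), and the ranges overlapped. The others called changed by 0.12 or less in size. DNAJC14 (0.12), DNAJC9 (0.11), DNAJC5 (0.09) and DNAJA1 (0.08) were higher, and DNAJB1 (-0.09) and DNAJA2 (-0.09) lower. Under 33 alternative settings the call of DNAJB1 was lost in 20, that of DNAJC5 in 11 and that of DNAJC9 in 7. DNAJB1 ran from 288 to 335 CPM (median 309) with hydrogen peroxide and 292 to 372 CPM untreated, so the ranges overlapped almost wholly. Without both outlying WT libraries 16 members passed, 11 higher and 5 lower, when 28.6% of all genes did.

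No member lay wholly above or below its untreated libraries with hydrogen peroxide (0.551% and 0.6% of all genes did), and none was called in all 4 lines (0.116% higher and 0.209% lower of all genes). Within lines, 1 member passed in vector cells (1.35% of all genes) and 4 passed in WT (8.06%). The count was 0 for SxxS (1.02%) and 1 for D162R R234D (1.03%). Without both outlying libraries 7 members passed in vector cells (9.87% of all genes), 5 in WT (8.98%), 2 for SxxS (6.56%) and 8 for D162R R234D (10.4%). DNAJC22 was the one called in vector and in D162R R234D, at log2 fold changes of 0.43 and 0.45. In WT the calls were DNAJA2 and DNAJC27 (lower) and DNAJC4 and DNAJC30 (higher). WT hydrogen peroxide replicate 2, one of the outlying libraries, held the highest DNAJC4 and DNAJC30 values of its group, 12.5 and 16.0 CPM, and without it 0 members passed in WT. With both outlying libraries left out, DNAJC30 and DNAJC27 were called in WT along with DNAJA2, DNAJC8 and DNAJC22. In SxxS, 3 members had an unadjusted p under 0.05 in edgeR's test, and DESeq2 called 1 (2.23% of all genes with an adjusted p). The interaction of line and hydrogen peroxide gave 0 members, against 0.685% of all genes (edgeR, smallest adjusted p = 0.162, DNAJC4). At an unadjusted p under 0.05, a looser threshold, there were 4 members with edgeR and 6 with DESeq2.

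Set against each other, arsenite and hydrogen peroxide differed for 35 of 43 members, 18 higher with arsenite and 17 lower (68.7% of all genes passed, 37.3% higher and 31.3% lower, edgeR). Without both outlying libraries 37 did, 19 higher and 18 lower, against 74.8% of all genes. Both comparisons with untreated cells share the untreated libraries, so their values are given side by side only. DNAJB1 was at 3.68 with arsenite and -0.09 with hydrogen peroxide, DNAJB9 at -1.27 and 0.11, DNAJC14 at -0.999 and 0.12, DNAJC5 at -0.72 and 0.09, and DNAJC22 at 0.60 and 0.35. For DNAJA4 the direct difference passed (0.32 higher with arsenite, adjusted p = 0.0074, edgeR), while neither agent passed against untreated cells by itself.

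Without treatment, no member was called between a complemented line and vector cells (edgeR), and DESeq2 called 0. Of all genes edgeR called 0.196% for the WT line, 0.0178% for SxxS and 0.0267% for D162R R234D. At an unadjusted p under 0.05, a looser threshold than these shares use, the WT line had 3 members, SxxS 0 and D162R R234D 2. Among 39 members of at least 1 CPM the log2 differences ran from -0.35 (DNAJC4) to 0.46 (DNAJA4) in the WT line, from -0.16 to 0.18 for SxxS and from -0.15 to 0.56 (DNAJA4) for D162R R234D. DNAJB1 differed from vector cells by -0.13 ± 0.06 in the WT line, by -0.0048 ± 0.06 for SxxS and by 0.07 ± 0.06 for D162R R234D. Without both outlying libraries DNAJC4 passed for WT (-0.35, adjusted p = 0.046, edgeR), as the 1 member of 43 when 2.99% of all genes passed, although neither of those libraries is untreated.

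The partners of the family were also read with arsenite. Of all genes tested 37.4% were called higher and 31.5% lower, the shares to set beside each count of this paragraph. Of 10 HSP70 genes 3 rose and 4 fell. HSPA6, the strictly inducible HSP70, went from 0.77 to 1.77 CPM untreated to 611 to 989 CPM (log2 fold change 9.43 ± 0.24), whereas HSPA8, the constitutive cytosolic form, decreased by 0.64 ± 0.03 on the log2 scale and HSPA5 (BiP), the ER partner of DNAJB9, DNAJC3 and DNAJC10, by 1.87 ± 0.03. HSPA9 of mitochondria rose by 0.42 ± 0.02. HSPA1A (0.20 ± 0.12) and HSPA1B (-0.10 ± 0.05) did not pass, and as near-identical copies their reads may not have been assigned to one or the other. Of 13 nucleotide exchange factors 6 rose and 5 fell, led by BAG3 (3.93 ± 0.03), HSPH1 (1.55 ± 0.04) and BAG1 (1.09 ± 0.07). Of 5 adaptors and heat shock factors 3 rose, among them STIP1 (0.74 ± 0.03), which links HSP70 to HSP90, while HSF1 did not pass (0.07 ± 0.04). Among J-domain proteins outside the symbol rule, HSCB, a mitochondrial co-chaperone of iron-sulfur cluster assembly, rose by 0.64 ± 0.07 on the log2 scale. The values of these partners include both outlying WT libraries. In the outlying WT arsenite replicate 1, BAG1 had 28661 and HSCB 10433 of 174119002 counts. In WT arsenite replicate 3 they had 10065 and 3888 of 94479028.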

How the data were processed

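Per the paper's methods, the authors used qAlign of QuasR to align paired-end DNBseq reads of 100 bp to GRCh38 (primary assembly) and deposited raw counts per gene, not normalized and not pooled. The annotation release, the use of strand and whether both mates were counted are not given in the sources used here. The value 4 occurred 31272 times, against 28087 for 3 and 17279 for 5, so halved counts were tried. Of 61587 identifiers, 61415 matched GENCODE 44, which gave symbols and positions. The exons of 10 members overlapped another gene on the same strand and of 18 on the opposite strand, and DNAJC19, DNAJB6 and DNAJA1 have 9, 8 and 6 annotated pseudogenes, so their counts may be shared.

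Genes with 10 or more counts summed over untreated vector libraries (the filter of the paper) were tested in R 4.3.3 with limma 3.58.1 and edgeR 4.0.16. The fit used TMM scaling, one mean per group over 36 libraries, robust quasi-likelihood dispersions, two-sided tests and Benjamini-Hochberg adjustment, with a call at an adjusted p under 0.05. Fold changes averaged over lines give each of the 4 lines equal weight. Levels are CPM and, between genes, CPM per kb of the deposited length, which equalled the summed exon length in GENCODE for 93.6% of genes. The code was tested on simulated counts with 200 of 22486 genes changed by 1 on the log2 scale with arsenite. Averaged over lines, 181 of these were recovered and 15 of 196 calls were false. In vector cells 141 were recovered and 7 of 148 calls were false. Hydrogen peroxide, with no change put in, gave 0 calls. Far fewer genes changed there than were called with arsenite here, so scaling under so wide a response was not tested. In 36 replicate pairs, a chi-square of the counts per degree of freedom was 3.31 to 341, where sampling noise alone gives about 1, so none was treated as a duplicate. Replicate numbers were not used to pair the samples. Deviations of same-numbered libraries correlated at -0.888 to 0.835 (median 0.0172), and those of different-numbered ones at -0.891 to 0.929 (median -0.00933). Because both ranges are this wide, the check cannot exclude a pairing in some groups.

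Named were all class A members and, at a mean of at least 1 CPM and with one sign in 4 lines, the called members of classes B and C with the largest changes, the hydrogen peroxide calls of smallest adjusted p, and members of lists by role. The members, lists and words were chosen with earlier results of these data known. The paired heat shock word and the MANE Select starts, used because the RefSeq start of DNAJB1 lay far upstream, were added after seeing the data, as were the counts without exon overlap and, for ranges that do not overlap, without both outlying libraries. Promoter bases are from the GRCh38 genome sequence. Alternatives were DESeq2 1.42.0 and its size factors, total counts, other filters, only the groups compared, a replicate block, halved counts and each library or both outlying ones left out. Genes near the filter rest on few counts, and their fold changes are imprecise.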

Additional observations from a re-analysis of the deposited data

How the results depend on the processing

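With arsenite averaged over lines, 35 to 36 members passed when each library was left out in turn, and no alternative moved that count, its directions or the counts by class by over 1.5 times. Within lines the ranges were 22 to 24 (vector), 27 to 30 (WT), 22 to 26 (D162R R234D) and 23 to 24 (SxxS), and 34 to 36 for arsenite against hydrogen peroxide. Of 1056 values of named members under an alternative, 1015 kept direction and call, 41 lost the call and 0 reversed. The call of DNAJB2 with arsenite was lost without a filter.

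Counts for hydrogen peroxide moved. Averaged over lines (7 members, 5 higher and 2 lower), no filter gave 2 (2 higher, 0 lower), when 4.29% of all genes passed. Leaving out both outlying WT libraries gave 16 (11 higher, 5 lower, 28.6% of all genes), and DESeq2 size factors or halved counts 1 lower. Single libraries left out gave 4 to 8 members, 3 to 6 higher and 1 to 2 lower, with 4 without D162R R234D hydrogen peroxide replicate 1. Where 1 lower call was left, that of DNAJB1 was lost, and without a filter that of DNAJA2 was lost too. Calls were lost in 20 of 33 alternatives for DNAJB1, 11 for DNAJC5, 7 for DNAJC9, 1 for DNAJA1 and 1 for DNAJA2. Within lines, DESeq2 gave 2 in vector, 2 in D162R R234D and 1 in SxxS (2.84%, 2.58% and 2.23% of all genes with an adjusted p). No filter gave 0 in vector (0.22% of all genes). Leaving out both outlying libraries gave 7 in vector, 2 in SxxS and 8 in D162R R234D (9.87%, 6.56% and 10.4%). With only the groups compared there were 9 in vector (12.5%) and 1 in SxxS (7.21%), and 0 in WT (0.00445%) and in D162R R234D (0.792%). Single libraries left out gave 0 to 1 in vector (0 without untreated replicate 2 or hydrogen peroxide replicate 1), 0 to 1 in D162R R234D (0 without untreated replicate 2 or hydrogen peroxide replicate 3), 0 in SxxS and 0 to 9 in WT (2, 1 and 2 without untreated replicates 1, 2 and 3, and 9, 0 and 8 without hydrogen peroxide replicates 1, 2 and 3). In the WT fits that gave 9 and 8, the outlying hydrogen peroxide replicate 2 was still in its group. Shares of all genes are not given for single libraries left out or for halved counts. The counts of members from those fits therefore have no background beside them. The interaction of line and hydrogen peroxide gave 0 to 1, with 1 without vector untreated replicate 3 or WT hydrogen peroxide replicate 1. For WT against vector untreated, leaving out both outlying libraries gave 1 (2.99% of all genes). Single libraries left out gave 0 in each comparison of untreated lines and in the arsenite interaction. For arsenite in WT, only the groups compared gave 15 (28.5% of all genes). The cause was not tested.

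With the replicate number as a block, 35 members passed with arsenite and 6 with hydrogen peroxide averaged over lines, with 1 lower. The share of all genes called in that fit is not given, so these counts have no background beside them. Whether samples with the same number belong together is not stated. Levels near 0.1 CPM rest on few counts.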

Other observations

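Some tested genes carry a member's name without being protein-coding members. With arsenite averaged over lines, the pseudogenes DNAJC8P1 (log2 fold change 0.31 ± 0.08), DNAJC8P2 (0.25 ± 0.07) and DNAJB6P1 (0.60 ± 0.21) passed edgeR's quasi-likelihood test in the direction of DNAJC8 (0.26) and DNAJB6 (1.13), and DNAJC19P9 did not (-0.38 ± 0.28). The divergent transcript DNAJC3-DT was higher (0.35 ± 0.12) while DNAJC3 was lower (-0.79). DNAJC9-AS1 was lower with both agents, at -0.43 ± 0.09 with arsenite and -0.35 ± 0.09 with hydrogen peroxide (adjusted p = 0.00789, edgeR), while DNAJC9 was at -0.56 and 0.11. How reads shared between a gene and its copy or antisense partner were counted was not tested.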
